A study of Mus musculus with 12 samples.

Results

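The genes described here are 10 genes of blood stem and progenitor cells that are normally turned down as red cells mature: Gata2, Kit, Spi1, Cd44, Cd34, Runx1, Fli1, Erg, Meis1 and Hhex. They were chosen by gene name, and all 10 were found among the 55367 distinct gene symbols of the expression tables. RNA came from G1E-ER4, a clonal mouse erythroid progenitor line derived from cells without a working Gata1 gene and made to carry a GATA1 protein that estradiol switches on. Each of 4 groups held 3 libraries of differentiating cells. The first group received 50 µM DTPA to lower zinc, the second 50 µM DFO to lower iron and the third 0.2 mM SA to block the heme synthesis enzyme ALAD, while control cells received none of these. The protocol text names DFO for the ALAD group and the sample titles name SA, and the titles were followed. All groups, control included, were cultured for 24 h with 100 nM β-estradiol, in medium that contained serum, erythropoietin and conditioned medium with the KIT ligand. No group without estradiol was analysed here, so the values show levels during maturation and not the normal decline of these genes.

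In immature blood cells GATA2 occupies many regulatory elements, and during red cell maturation GATA1 replaces it there. Gata2 itself and Kit are classical genes that GATA1 silences in this exchange, often called the GATA switch. Spi1 encodes PU.1, which drives myeloid and lymphoid fates and opposes GATA1, and Fli1 and Erg encode related ETS factors of stem cells and megakaryocytes. RUNX1, MEIS1 and HHEX are transcription factors of stem and progenitor cells, while KIT, CD44 and CD34 are proteins of the cell surface.

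The values are TPM, abundances scaled by exon length to a fixed total in each library. Comparisons between genes rest on the length of all annotated exons of each gene, which can exceed that of the transcript expressed. Between 19857418 and 24326311 reads per library were recovered from the spacing of the TPM values, so that a single read on a 1-kb transcript corresponds to 0.124 to 0.160 TPM. The genes described held between 6301 and 10951 of these reads per library. A gene was tested if it had at least 1 TPM in at least 3 libraries, which 8 of the 10 genes and 11917 of all genes did. Fold changes were fitted by limma on log2(TPM + 1), a scale that understates the change of low genes, and a gene was called at an adjusted p under 0.05. All 12 erythroid marker genes were tested and had a mean above 1 TPM in every group. Of these 12, 9 fell and 2 rose against control with DTPA, 5 fell and 1 rose with DFO, and 7 fell and 2 rose with SA. Of all tested genes 42.1% were called lower and 23.5% higher with DTPA, 2.28% and 8.39% with DFO, and 6.75% and 15.4% with SA. The median log2 fold change of all tested genes was -0.11 with DTPA, 0.05 with DFO and 0.05 with SA. In bulk RNA a change in the number of cells of a kind and a change in RNA per cell cannot be told apart.

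Cd34 and Erg were not detected at a level that these libraries could resolve. Cd34, which encodes a sialomucin of stem and progenitor cells, was listed at 0 TPM in all 12 libraries, where 3 reads would have been worth between 0.0509 and 0.0659 TPM per library. The housekeeping genes Actb and Gapdh had at least 999.8 and 28.5 TPM in every library, which cannot show whether Cd34 was absent or not counted. An antisense gene model that overlaps Cd34 carried at most 1.58 TPM. Erg had between 0 and 3 reads per library and at most 0.124 TPM, a value seen in control replicate 3. No fold change is given for either gene. Cd34 lies on chromosome 1 from 194938819 to 194961279 and Erg on chromosome 16 from 95359169 to 95586593 of the mouse build GRCm38 (mm10).

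With DTPA, 7 of the 8 tested genes rose (Kit, Spi1, Cd44, Hhex, Fli1, Gata2 and Meis1) and Runx1 fell. In all 8 genes the 3 DTPA libraries lay wholly on one side of the 3 control libraries. DTPA changed a large part of the transcriptome, and 65.5% of all tested genes were called in this comparison, 23.5% of them higher and 42.1% lower as shares of all tested genes. Libraries of the groups did not overlap for 69.6% of all tested genes. As deposited, most of the called genes at large were lower, whereas among the 8 genes most were higher, and their median log2 fold change was 1.01. The balance over all genes depends on the scaling. After scaling by the median of ratios 3842 were higher and 3859 lower, with a median log2 fold change of 0.002 over all tested genes. The 8 genes were again called 7 higher and 1 lower. Of the 12 erythroid markers 9 were called lower and 2 higher with DTPA. Slc4a1, the band 3 anion exchanger of the red cell membrane, averaged 45.5 ± 3.32 TPM with DTPA and 718 ± 33.4 TPM in control (SD, n = 3 each). Epor, the erythropoietin receptor, averaged 79.5 ± 4.12 TPM with DTPA and 153 ± 2.39 TPM in control. Means were higher with DTPA for Alas2 (3002 ± 10.3 TPM against 2268 ± 17.9 TPM in control), Klf1 (689 ± 16.2 TPM against 661 ± 2.08 TPM) and Nfe2 (545 ± 8.15 TPM against 526 ± 4.41 TPM). The summed level of the 12 markers, Gata1 among them, was between 16785 and 17594 TPM with DTPA. It was between 17949 and 18123 TPM with DFO, 16478 and 17039 TPM with SA, and 20214 and 21189 TPM in control. The largest part in every group was the globin gene Hba-a1. Its mean was 10152 ± 413 TPM with DTPA, 9164 ± 138 TPM with DFO, 8399 ± 305 TPM with SA and 11589 ± 563 TPM in control. The part of this sum in the levels of the progenitor genes was not tested. The control libraries entered all 3 comparisons with control, so these share their error.

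**Figure D1:**
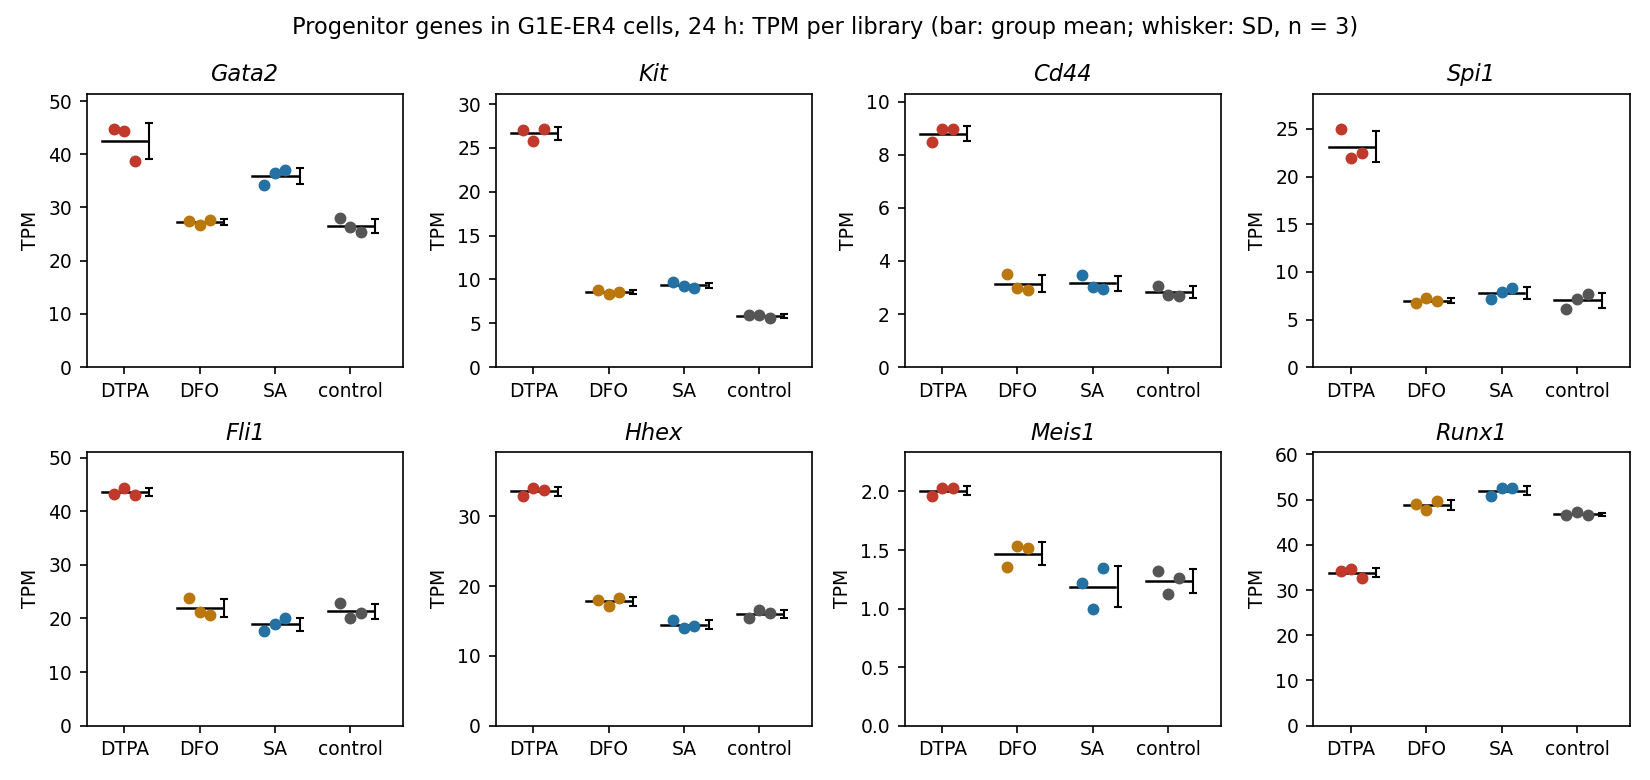
TPM of the 8 tested progenitor genes in each of the 12 libraries, by group on the horizontal axis, with a bar at the group mean and a whisker of 1 SD (n = 3). The DTPA points stand apart from the other groups, above them for 7 genes and below them for Runx1, and Gata2 and Kit are also above control with SA.

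Gata2, the founding factor of the switch, had 44.7, 44.3 and 38.7 TPM with DTPA, 27.4, 26.7 and 27.7 TPM with DFO, 34.2, 36.5 and 37.1 TPM with SA, and 27.99, 26.3 and 25.5 TPM in control. All DTPA and SA libraries lay above all control libraries, and the DFO and control libraries overlapped. The log2 fold change was 0.66 with DTPA (SE 0.0560, adjusted p = 7.53e-07) and 0.42 with SA (SE 0.0560, adjusted p = 0.000293). With DFO it was 0.04 with a 95% interval between -0.09 and 0.16 (adjusted p = 0.732). The rise was larger with DTPA than with SA by 0.24 (adjusted p = 0.00278), and larger with SA than with DFO by 0.38 (adjusted p = 0.00105). Gata2 lies on chromosome 6 from 88193891 to 88207032, with 5398 bp of annotated exon.

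Kit, the receptor for stem cell factor, was the only gene of the 8 that was called higher with every treatment. It had 27.0, 25.8 and 27.1 TPM with DTPA, 8.75, 8.37 and 8.56 TPM with DFO, 9.66, 9.29 and 9.06 TPM with SA, and 5.94, 5.95 and 5.60 TPM in control. No treated library overlapped control. The log2 fold changes were 2.02 with DTPA (SE 0.0454, adjusted p = 6.80e-12), 0.48 with DFO (adjusted p = 0.000119) and 0.60 with SA (adjusted p = 5.33e-06). As ratios of mean TPM these were 4.57-fold with DTPA, 1.47-fold with DFO and 1.60-fold with SA. The difference between SA and DFO was 0.11 (95% interval 0.01 to 0.21) and was not called (adjusted p = 0.136), whereas DTPA exceeded DFO by 1.53 and SA by 1.42 (adjusted p = 7.96e-11 and 1.37e-10). Kit spans 75574916 to 75656722 on chromosome 5, and its 8911 bp of exon gave between 349 and 1943 reads per library.

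Cd44, the adhesion receptor for hyaluronan, had 8.48, 8.95 and 8.96 TPM with DTPA, 3.50, 3.00 and 2.92 TPM with DFO, 3.48, 3.02 and 2.96 TPM with SA, and 3.07, 2.73 and 2.68 TPM in control. Only the DTPA libraries lay clear of control. The log2 fold change with DTPA was 1.36 (SE 0.0850, adjusted p = 4.76e-08), and the differences of 0.11 with DFO and 0.12 with SA were not called (adjusted p = 0.461 and 0.370). The 95% intervals reached up to 0.30 in both of these comparisons. Cd44 lies on chromosome 2 from 102811141 to 102901665.

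Among the ETS factors, Spi1 rose most with DTPA. It had 25.0, 21.9 and 22.5 TPM with DTPA, 6.73, 7.24 and 6.99 TPM with DFO, 7.13, 7.85 and 8.34 TPM with SA, and 6.14, 7.16 and 7.70 TPM in control. The DTPA libraries were more than 2-fold above every other library, and the other 3 groups overlapped. The log2 fold change was 1.60 with DTPA (SE 0.0816, adjusted p = 7.79e-09), 0.00 with DFO (95% interval -0.18 to 0.18, adjusted p = 0.992) and 0.14 with SA (95% interval -0.04 to 0.32, adjusted p = 0.271). Spi1 lies on chromosome 2 from 91082390 to 91115756 and gave between 120 and 487 reads per library.

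Fli1 had 43.3, 44.4 and 43.1 TPM with DTPA, 23.8, 21.3 and 20.6 TPM with DFO, 17.7, 19.0 and 20.0 TPM with SA, and 22.9, 20.1 and 20.9 TPM in control. It rose 2.04-fold with DTPA (log2 fold change 1.00, adjusted p = 4.86e-08). With SA all 3 libraries lay below all 3 controls, but the log2 fold change of -0.16 was not called (95% interval -0.30 to -0.03, adjusted p = 0.0870). Under median-of-ratios scaling it was called, at -0.22 (adjusted p = 0.0153), and also by limma voom on the recovered reads, at -0.19 (adjusted p = 0.0345). Fli1 was thus called higher with DTPA, while with SA it was not called in the main fit and called lower under 2 of 19 alternatives. The gene lies on chromosome 9 from 32422204 to 32542861. Overlapping short gene models on its strand carried at most 0.480 TPM, and a small nuclear RNA gene within it at most 1.34 TPM.

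Hhex, a homeobox factor of blood and endothelial progenitors, was called higher with DTPA and lower with SA. It had 32.9, 34.1 and 33.8 TPM with DTPA, 18.0, 17.2 and 18.3 TPM with DFO, 15.2, 13.9 and 14.3 TPM with SA, and 15.4, 16.6 and 16.2 TPM in control. The DTPA and DFO libraries lay above all controls and the SA libraries below them. The log2 fold change was 1.02 with DTPA (SE 0.0430, adjusted p = 1.41e-09), 0.14 with DFO (95% interval 0.05 to 0.24, not called, adjusted p = 0.0592) and -0.14 with SA (adjusted p = 0.0392). Tested directly, SA lay below DFO by 0.28 (log2 fold change -0.28, SE 0.0430, adjusted p = 0.00138). The call against control with SA lay near the threshold. It was lost with no filter on low values (-0.14, adjusted p = 0.0556) and in a fit of only the 6 libraries compared (-0.14, adjusted p = 0.109). With the log2 fold change between -0.11 and -0.14 it was also lost without SA replicate 2 (adjusted p = 0.133) or 3 (0.1002), without control replicate 2 (0.125) or 3 (0.101) and, through the shared estimate of spread, without DTPA replicate 2 (0.0519) or 3 (0.0535). Hhex lies on chromosome 19 from 37434810 to 37440731.

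Meis1, a homeobox partner of HOX proteins in stem cells, was the lowest of the tested genes. It had 1.96, 2.03 and 2.03 TPM with DTPA, 1.36, 1.53 and 1.52 TPM with DFO, 1.22, 0.998 and 1.35 TPM with SA, and 1.32, 1.12 and 1.26 TPM in control, from between 75 and 173 reads. The DTPA libraries lay above all others, and the log2 fold change of 0.43 was called (SE 0.112, adjusted p = 0.00527). The differences of 0.14 with DFO and -0.03 with SA were not called (adjusted p = 0.471 and 0.872). Against DFO, DTPA was higher by 0.28 (adjusted p = 0.0421), a call lost without DTPA replicate 1, 2 or 3 (adjusted p = 0.0750, 0.0909 and 0.0929), without DFO replicate 1, 2 or 3 (0.113, 0.0646 and 0.0712), and without SA replicate 1 (0.0530), control replicate 1 (0.0515) or control replicate 3 (0.0538). Meis1 lies on chromosome 11 from 18879817 to 19018985.

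Runx1, which encodes the factor that establishes the first blood stem cells and is needed for megakaryocytes, was the only gene of the 8 that fell with DTPA. It had 34.3, 34.6 and 32.7 TPM with DTPA, 49.0, 47.6 and 49.8 TPM with DFO, 50.8, 52.6 and 52.5 TPM with SA, and 46.6, 47.2 and 46.6 TPM in control. It fell with DTPA (log2 fold change -0.46, SE 0.0293, adjusted p = 6.01e-08), 1.38-fold on the scale of mean TPM. With SA it rose by 0.15 (adjusted p = 0.00386), which median-of-ratios scaling reduced to 0.09, no longer called (adjusted p = 0.0509). With DFO the difference of 0.06 was not called (adjusted p = 0.235), although all 3 libraries lay above control. Runx1 had between 2934 and 4518 reads per library on 12025 bp of exon and was the most deeply read of the 8 genes. It lies on chromosome 16 from 92601466 to 92826149.

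**Figure D2:**
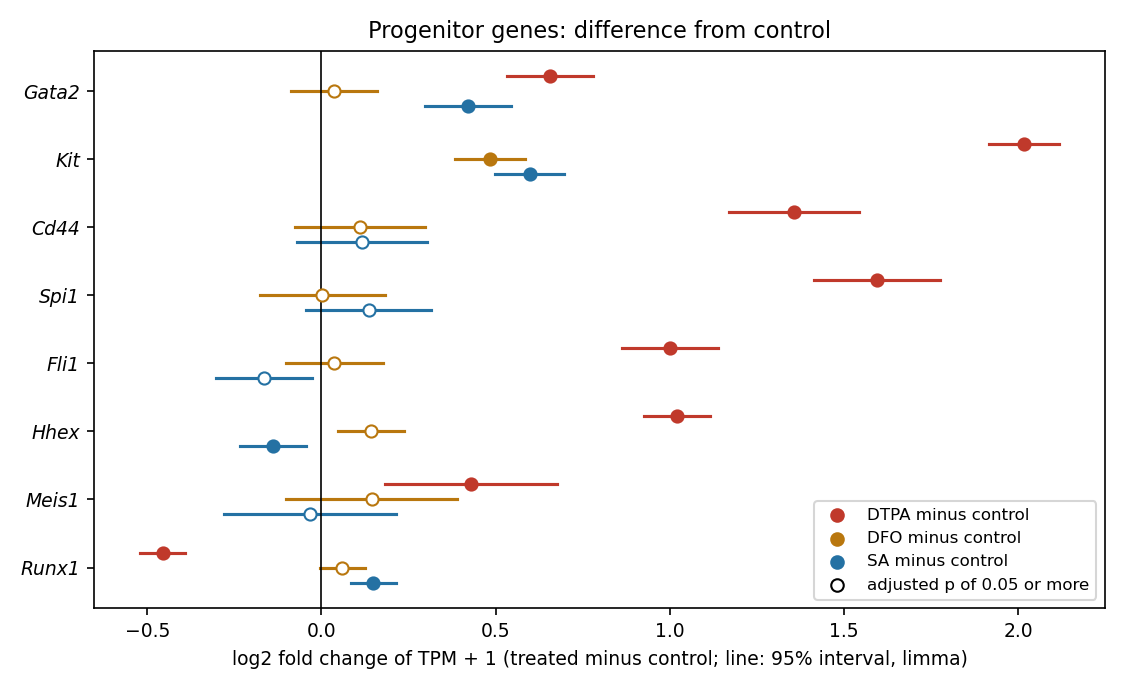
Log2 fold change of TPM + 1 against control for the 8 tested progenitor genes (horizontal axis, treated minus control), with the 95% interval of the limma fit as a line and open points where the adjusted p was 0.05 or more. DTPA points run between -0.46 for Runx1 and 2.02 for Kit, while DFO and SA points lie between -0.16 and 0.60.

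The order of the levels changed with DTPA. In DFO, SA and control cells Runx1 was the most abundant of the 8 transcripts, followed by Gata2, Fli1 and Hhex, with every library of each gene above every library of the next. With DTPA, Fli1 averaged 43.6 ± 0.699 TPM (SD, n = 3) and Gata2 42.6 ± 3.36 TPM, and their libraries overlapped. Runx1 at 33.9 ± 1.01 TPM and Hhex at 33.6 ± 0.658 TPM followed and overlapped each other. Kit stood above Spi1 in all libraries of the 3 treatments, and below it in control, where Kit averaged 5.83 ± 0.199 TPM and Spi1 7.00 ± 0.791 TPM. Summed over the 8 genes, the level was between 209 and 218 TPM with DTPA, 133 and 139 TPM with DFO, 139 and 146 TPM with SA, and 126 and 129 TPM in control.

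Fewer genes were called with DFO and SA than with DTPA. With DFO, 1 of 8 was called higher and none lower, where 10.7% of all tested genes were called, 8.39% higher and 2.28% lower, and 4 of 8 did not overlap control, where 30.2% of all tested genes did not. The median log2 fold change of the 8 genes was 0.09. With SA, 3 of 8 were called higher (Kit, Gata2 and Runx1) and 1 lower (Hhex), where 22.2% of all tested genes were called, 15.4% higher and 6.75% lower, and 5 of 8 did not overlap control, where 38.5% did not. The median was 0.13.

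The treatments were also compared directly. All 8 genes differed between DTPA and DFO and between DTPA and SA, in both cases 7 higher and Runx1 lower with DTPA. Against DFO 65.9% of all tested genes were called, 19.6% higher and 46.4% lower, and against SA 67.1% were, 20.1% higher and 47% lower. Libraries did not overlap for any of the 8 genes in either comparison, nor for 69.6% of all tested genes against DFO and 70.4% against SA. The log2 difference of Runx1 was -0.51 from DFO and -0.60 from SA (adjusted p = 2.08e-08 and 4.95e-09). Between SA and DFO, Gata2 was higher and Hhex lower with SA and the other 6 were not called, where 13.5% of all tested genes were called, 6.3% higher and 7.22% lower. Libraries of SA and DFO did not overlap for 6 of the 8 genes, against 31.9% of all tested genes. Limma voom on the recovered reads called 4 genes here, adding Fli1 (-0.21, adjusted p = 0.0301) and Runx1 (0.09, adjusted p = 0.0179).

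**Figure D3:**
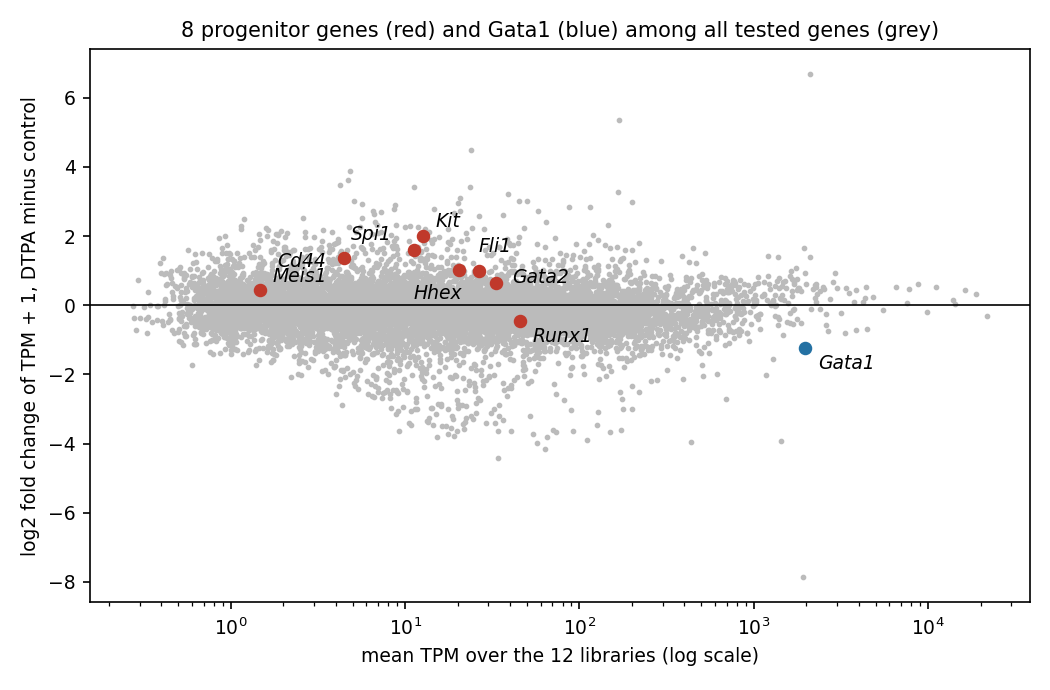
Log2 fold change with DTPA against control (vertical axis) by mean TPM over the 12 libraries (horizontal log axis) for all 11917 tested genes in grey, the 8 progenitor genes in red and Gata1 in blue. Kit lies highest of the red points at 2.02 and Runx1 is the only red point below 0.

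The stretches of 250 bases before the RefSeq start of transcription are shown (build GRCm38.p6). They cover the genes that rose at least 2-fold with DTPA and have an entry in the RefSeq promoter table, and both starts of Runx1, the gene that fell. For Kit, Hhex and the distal start of Runx1 the RefSeq start lies inside the gene positions given above, so these windows reach into them. Distances are counted from the RefSeq start. Windows were present for 8 of the 10 genes, 13 in all. Spi1 and Fli1 had none. Capitals mark matches, on either strand, to the GATA hexamer (the letters GATA with A or T before them and A or G after them) and to the ETS core AGGAAG.
Kit, chr5:75574737-75574986, plus strand: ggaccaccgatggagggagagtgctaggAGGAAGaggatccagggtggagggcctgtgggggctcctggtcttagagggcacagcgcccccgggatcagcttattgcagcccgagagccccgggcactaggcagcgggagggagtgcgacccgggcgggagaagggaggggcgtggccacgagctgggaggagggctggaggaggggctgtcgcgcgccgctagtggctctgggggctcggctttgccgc
Cd44, chr2:102901666-102901915, minus strand: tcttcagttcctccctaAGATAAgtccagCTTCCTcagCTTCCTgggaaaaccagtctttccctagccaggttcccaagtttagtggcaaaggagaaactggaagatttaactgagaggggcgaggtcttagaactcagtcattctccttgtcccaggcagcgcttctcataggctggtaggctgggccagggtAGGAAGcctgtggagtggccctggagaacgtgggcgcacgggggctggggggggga
Hhex, chr19:37434591-37434840, plus strand: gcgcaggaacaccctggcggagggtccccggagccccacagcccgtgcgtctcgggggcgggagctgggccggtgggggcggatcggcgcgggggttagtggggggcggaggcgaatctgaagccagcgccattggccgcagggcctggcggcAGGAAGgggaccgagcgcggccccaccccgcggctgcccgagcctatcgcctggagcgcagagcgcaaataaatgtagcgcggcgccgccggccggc
Runx1, distal start, chr16:92826075-92826324, minus strand: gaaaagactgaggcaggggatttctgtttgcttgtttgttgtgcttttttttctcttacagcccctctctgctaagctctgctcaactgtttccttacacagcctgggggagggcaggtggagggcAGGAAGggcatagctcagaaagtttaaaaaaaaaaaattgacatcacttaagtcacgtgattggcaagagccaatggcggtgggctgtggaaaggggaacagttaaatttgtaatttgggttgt
Runx1, proximal start, chr16:92697330-92697579, minus strand: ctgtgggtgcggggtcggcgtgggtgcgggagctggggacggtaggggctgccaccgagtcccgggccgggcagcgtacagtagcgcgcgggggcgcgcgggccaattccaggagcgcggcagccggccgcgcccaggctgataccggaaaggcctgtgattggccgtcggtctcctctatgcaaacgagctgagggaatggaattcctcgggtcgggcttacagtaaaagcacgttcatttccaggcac

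A GATA hexamer was found before the start of Cd44 (233 bases upstream), Cd34 (226 bases) and 1 of the 3 starts of Erg (103 bases), and in no window of Kit, Gata2, Hhex, Meis1 or Runx1. Among all 32851 promoter windows of the same length 26.5% held such a hexamer. The ETS core was found before Kit (222 bases upstream), Hhex (97 bases), the distal start of Runx1 (124 bases) and at 3 places before Cd44 (221, 212 and 56 bases), as well as before Cd34 and Erg, against 29.5% of all windows. The matches describe letters only, and these windows do not cover the enhancers through which GATA factors are known to act on Gata2 and Kit.

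Gata1 transcripts were followed beside Gata2. Gata1 had 1047, 1087 and 1039 TPM with DTPA, 2264, 2194 and 2233 TPM with DFO, 2099, 2086 and 2193 TPM with SA, and 2535, 2422 and 2546 TPM in control. It fell with each treatment, with log2 fold changes of -1.24 with DTPA (adjusted p = 5.60e-12), -0.16 with DFO (adjusted p = 0.00330) and -0.23 with SA (adjusted p = 0.000116). Reads of the disrupted locus and of the transgene, which is not under the control of the normal Gata1 gene, cannot be separated in these values. Gata2 rose with DTPA and SA, and was not called with DFO. The ratio of Gata1 to Gata2 TPM was 23.4, 24.5 and 26.9 with DTPA, 82.5, 82.0 and 80.7 with DFO, 61.3, 57.2 and 59.2 with SA, and 90.5, 92.2 and 99.96 in control. The ranges of the 4 groups did not overlap.

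**Figure D4:**
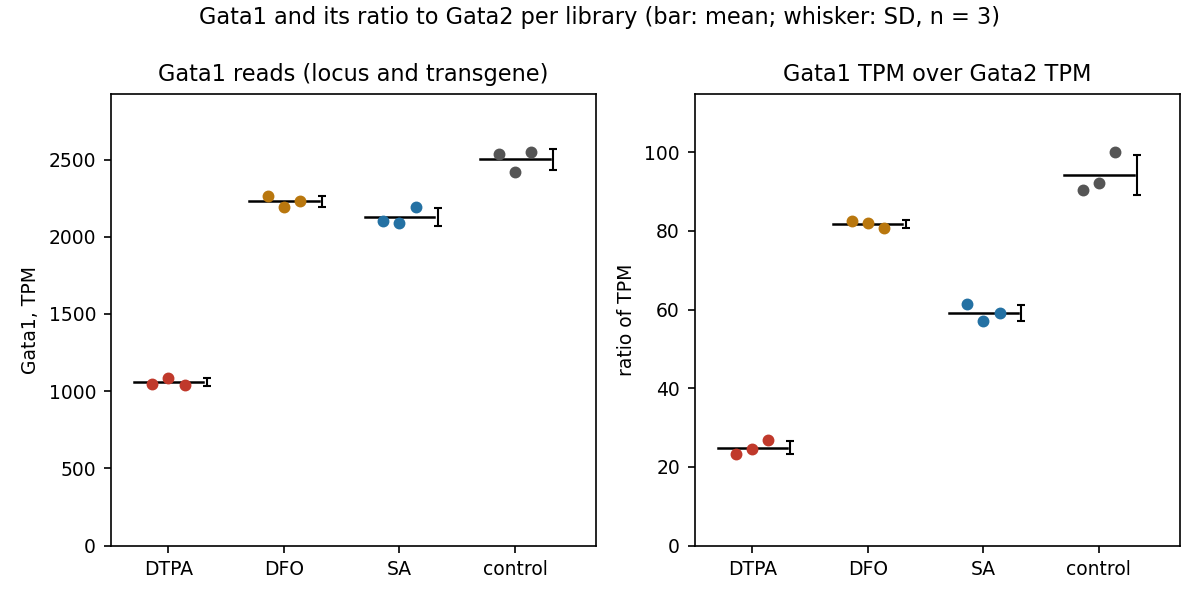
Gata1 TPM (left) and the ratio of Gata1 to Gata2 TPM (right) in each library by group, with a bar at the mean and a whisker of 1 SD (n = 3). The ratio is lowest with DTPA, at 23.4 to 26.9, and highest in control, at 90.5 to 99.96.

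Other genes of the same cell stages did not move as a block. Of 40 further stem and progenitor genes 12 were tested, and 16 of the other 28 were listed at 0 in all 12 libraries, among them Flt3, Hoxa9 and Mecom. Myb reached the filter only through the DTPA libraries, where it is high, and of the other 11 genes 3 rose, 7 fell and 1 was not called with DTPA. Their median log2 fold change was -0.40, beside -0.11 over all tested genes, of which 23.5% were higher and 42.1% lower. Mllt3, which encodes the chromatin reader AF9 that maintains stem cells, rose to 159 ± 3.24 TPM with DTPA, against 23.3 ± 0.313 TPM in control (SD, n = 3 each; log2 fold change 2.72, adjusted p = 3.44e-14). Myc, a driver of growth, rose to 18.4 ± 2.09 TPM against 8.99 ± 1.47 TPM (adjusted p = 2.20e-05). Myb, a factor of erythroid progenitors that declines with maturation, averaged 1.91 ± 0.254 TPM with DTPA and 0.622 ± 0.0962 TPM in control. Lyl1, a stem cell relative of Tal1, fell to 0.580 ± 0.271 TPM against 1.96 ± 0.578 TPM (adjusted p = 0.00129).

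In the same list DFO gave 5 higher, 1 lower and 6 not called (3 higher and none lower from only the 6 libraries compared), with Ccnd2, a G1 cyclin gene, highest by fold (37.3 ± 0.759 TPM with DFO, against 31.1 ± 1.01 TPM in control, log2 fold change 0.25, adjusted p = 0.00164). After scaling by the median of ratios 3 were higher and 1 lower. SA gave 5 higher and 1 lower, or 4 and 2 under that scaling. Of all tested genes 8.39% were higher and 2.28% lower with DFO, and 15.4% and 6.75% with SA, as deposited. Under that scaling 423 of the 11917 tested genes were higher and 646 lower with DFO, and 1124 and 1624 with SA. Bcl11a, a repressor of fetal globin genes, rose with SA to 8.34 ± 0.375 TPM against 6.22 ± 0.190 TPM (adjusted p = 0.000951). Lmo2, a bridging partner of GATA1 and TAL1, rose with SA to 452 ± 8.41 TPM against 383 ± 4.80 TPM (adjusted p = 2.27e-05). Ccnd2 rose with SA by 0.30 (adjusted p = 0.000158), and Ikzf1, a lymphoid and erythroid zinc finger factor, rose with DFO by 0.16 (adjusted p = 0.00231). Mllt3 fell with SA (log2 fold change -0.21, adjusted p = 0.000446) and rose with DFO (0.25, adjusted p = 0.000527). The call of Bcl11a with DFO (0.22, adjusted p = 0.0361) was lost under 12 of 19 alternatives.

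The genes through which KIT signals were called in both directions with DTPA. Of 27 genes 24 were tested. Of these 10 rose, 10 fell and 4 were not called (median 0.05), beside 23.5% higher and 42.1% lower of all tested genes. After scaling by the median of ratios 13 were higher and 7 lower, beside 3842 higher and 3859 lower of the 11917 tested genes. Gab2, a docking protein of KIT signalling, rose to 40.7 ± 0.322 TPM with DTPA against 19.8 ± 0.585 TPM in control (adjusted p = 3.07e-10), and Plcg1, phospholipase C gamma, rose 1.93-fold (adjusted p = 1.24e-06). Socs1, a feedback inhibitor of cytokine receptors, rose to 3.74 ± 0.226 against 1.40 ± 0.461 TPM (adjusted p = 0.000396). Map2k1, the kinase MEK1, fell to 79.4 ± 1.10 TPM against 178 ± 11.1 TPM (adjusted p = 2.43e-10). Kitl, the gene of the ligand itself, was listed at 0 TPM in all 12 libraries.

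With DFO 3 of these 24 genes were called higher and none lower (1 and 2 under median-of-ratios scaling), and with SA 2 were higher and 3 lower (1 and 4). The shares of all tested genes were 8.39% higher and 2.28% lower with DFO, and 15.4% and 6.75% with SA, as deposited. Under that scaling 423 of 11917 were higher and 646 lower with DFO, and 1124 and 1624 with SA. With DFO 1 gene was called from only the 6 libraries compared, and likewise without DFO replicate 2 or 3, and voom called 5. With SA 3 were called, 1 higher and 2 lower, without SA replicate 2, SA replicate 3 or control replicate 3. Akt1, a survival kinase, rose with DFO to 61.3 ± 0.918 TPM against 51.5 ± 0.692 TPM (adjusted p = 0.00267). The call of Gab2 with DFO (0.16) was lost under 5 of 19 alternatives. Sh2b3, the adaptor LNK that restrains KIT, rose with SA to 63.9 ± 2.28 TPM against 55.4 ± 0.383 TPM (adjusted p = 0.000430). Lyn, a SRC family kinase, fell with SA to 27.4 ± 0.689 TPM against 30.8 ± 0.583 TPM (adjusted p = 0.00464), and Gab2 fell to 17.1 ± 0.380 TPM against 19.8 ± 0.585 TPM (adjusted p = 0.00201). Grb2 was called higher with SA (0.12), a call lost under 6 of 19 alternatives.

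Few targets of PU.1 were expressed. Of 28 listed targets 6 were tested, and 12 of the other 22 were listed at 0 in all libraries, including the myeloid genes Itgam, Csf3r, Lyz2 and Mpo. Csf2ra and Cd79a reached the filter only through the DTPA libraries, where they are high, so that the filter itself favoured a difference. Of the other 4 genes 3 rose with DTPA and Ncf4 fell, beside 23.5% higher and 42.1% lower of all tested genes, and after scaling by the median of ratios Ncf4 was no longer called. Itgb2, the leukocyte integrin beta 2 chain, rose to 54.5 ± 2.07 TPM against 12.2 ± 1.22 TPM in control (log2 fold change 2.08, adjusted p = 8.25e-11). Btk, a kinase of B and myeloid cells, rose to 33.7 ± 1.55 TPM against 14.5 ± 1.62 TPM (adjusted p = 8.73e-08). Csf2rb, the shared beta chain of the receptors for IL-3, IL-5 and GM-CSF, rose to 1809 ± 37.6 TPM against 1016 ± 23.9 TPM (adjusted p = 6.09e-11). Cd79a, a B cell receptor subunit, averaged 1.62 ± 0.365 TPM with DTPA and 0.569 ± 0.199 TPM in control. Csf2rb was also the only one of the 6 called with DFO, higher by 0.12 (adjusted p = 0.0107; 0.190 under median-of-ratios scaling), and with SA, lower by 0.14 (log2 fold change -0.14, adjusted p = 0.00170). After scaling by the median of ratios, or without control replicate 3, 2 of the 6 were called lower with SA. Of all tested genes 10.7% were called with DFO and 22.2% with SA, as deposited. With SA 1624 of 11917 were called lower under that scaling, and 603 without control replicate 3.

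Genes of the complexes that repress with GATA1 were counted in the same way. Of 28 genes 26 were tested, Gata1 among them. With DTPA 6 rose, 13 fell and 7 were not called (median -0.09). Over all tested genes 23.5% were higher and 42.1% lower, with a median of -0.11. After scaling by the median of ratios 9 were higher and 10 lower, beside 3842 higher and 3859 lower of the 11917 tested genes. Gfi1b, a repressor that recruits the demethylase LSD1, rose to 749 ± 26.0 TPM against 276 ± 2.36 TPM (adjusted p = 1.56e-12), and Chd3, a remodeller of the NuRD family, rose to 88.2 ± 2.40 TPM against 48.2 ± 0.397 TPM (adjusted p = 4.20e-10). Ezh2, the histone methyltransferase of Polycomb, fell to 35.2 ± 0.948 TPM against 69.3 ± 1.85 TPM (adjusted p = 1.58e-10). With DFO 2 rose and 1 fell, beside 8.39% higher and 2.28% lower of all tested genes. Under that scaling 1 rose and 3 fell with DFO, beside 423 higher and 646 lower of 11917. Mta1, a NuRD subunit, was higher by 0.26 with DFO (adjusted p = 0.0108) and Mbd2 higher by 0.09, a call lost under 6 of 19 alternatives. With SA 4 rose and 6 fell, beside 15.4% higher and 6.75% lower of all tested genes. Under that scaling 2 rose and 11 fell with SA, beside 1124 higher and 1624 lower of 11917. Without SA replicate 1 or without control replicate 1 the counts with SA were 3 and 3. Cbfa2t3, the corepressor ETO2, rose with SA to 73.1 ± 2.26 TPM against 57.2 ± 2.49 TPM (adjusted p = 4.47e-05), and Ldb1, which brings enhancers to promoters with LMO2, rose to 103 ± 1.54 TPM against 88.5 ± 2.35 TPM (adjusted p = 0.000179). Rbbp7, a histone chaperone subunit, fell with SA to 74.6 ± 2.34 TPM against 89.2 ± 3.75 TPM (adjusted p = 0.000504).

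**Figure D5:**
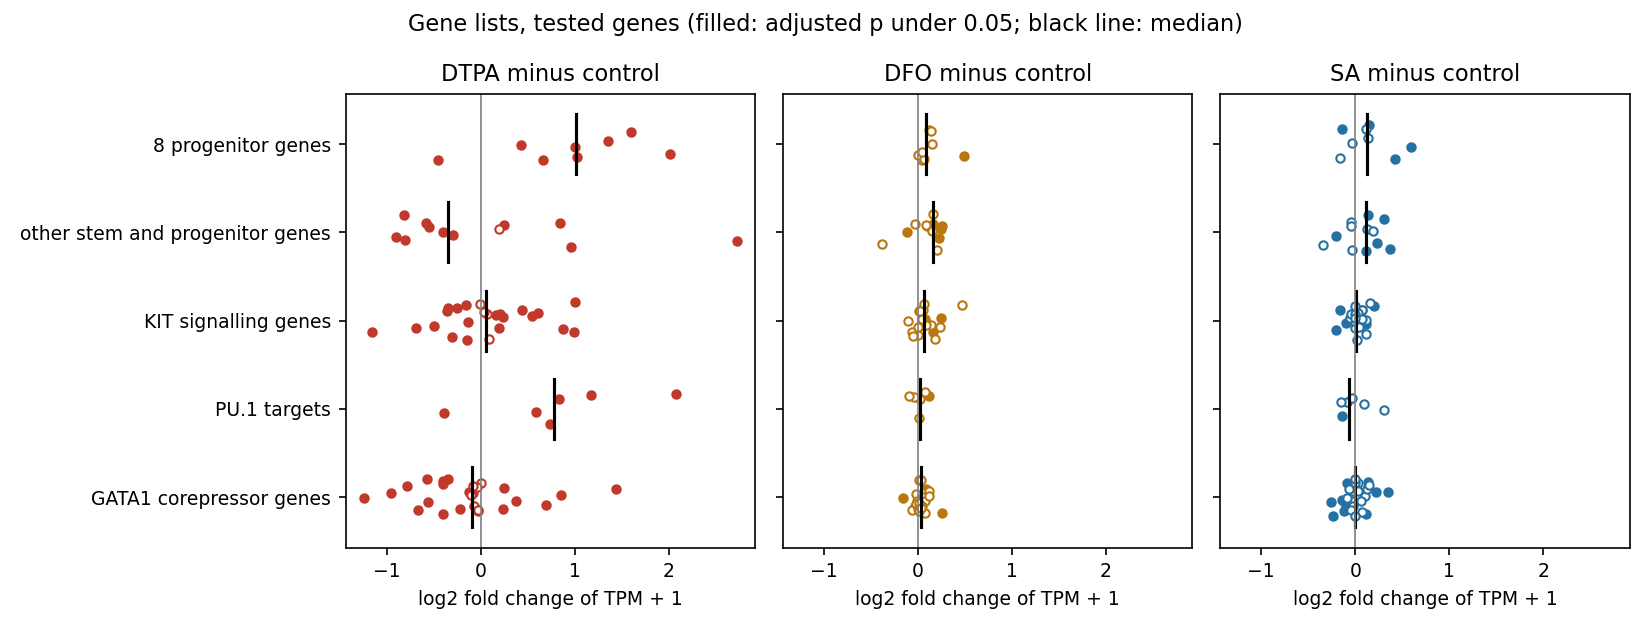
Log2 fold change against control (horizontal axis) of each tested gene of 5 lists (rows) with DTPA, DFO and SA (panels), filled where the adjusted p was under 0.05, with a black line at the list's median. With DTPA the median is 1.01 for the 8 progenitor genes and -0.35 for the 12 other stem and progenitor genes, Myb included, and with DFO and SA all medians lie between -0.06 and 0.16.

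Several of the 10 genes are also expressed in megakaryocytes (Fli1, Runx1, Meis1) and mast cells (Kit, Gata2), and markers of those lineages were followed beside them. The 14 megakaryocyte markers summed to between 37.0 and 46.1 TPM with DTPA, 10.4 and 11.1 TPM with DFO, 8.53 and 10.0 TPM with SA, and 8.32 and 9.53 TPM in control. Of the 4 tested, 3 were called higher with DTPA, beside 23.5% of all tested genes. Most of the sum with DTPA was the platelet integrin gene Itgb3, at 17.0 ± 0.843 TPM against 2.15 ± 0.189 TPM in control, and Gp1ba, at 18.5 ± 3.15 TPM against 4.30 ± 0.463 TPM. Gp9 averaged 3.11 ± 1.69 TPM with DTPA and 1.30 ± 0.503 TPM in control. Itga2b averaged 1.19 ± 0.175 TPM with DTPA and 1.04 ± 0.107 TPM in control. Ppbp, Gp1bb, Gp6 and Cd9 were listed at 0 in every library, and Pf4 averaged 0.374 TPM with DTPA and was listed at 0 in control. The 10 mast cell markers summed to between 2.83 and 3.60 TPM in DTPA cells, compared with 0.321 and 0.565 TPM for controls. Most of the mast cell sum with DTPA was Hdc, which averaged 2.59 TPM with DTPA and 0.244 TPM in control. Hdc reached the filter only through the DTPA libraries, where it is high. Mcpt8 and Fcer1a were listed at 0 throughout. The 12 myeloid markers stayed below 0.61 TPM in sum in every library, with Itgam, Csf3r, Cd14 and Lyz2 at 0. The 15 lymphoid markers summed to between 1.73 and 2.33 TPM in DTPA cells, compared with 0.649 and 1.18 TPM for controls. Most of the lymphoid sum with DTPA was Cd79a, at 1.62 TPM against 0.569 TPM in control. Cd79a reached the filter only through the DTPA libraries, where it is high. Lck averaged 0.336 TPM with DTPA and 0.329 TPM in control, and the other 13 were at 0 in all DTPA libraries. The part of these lineages in the levels of the progenitor genes was not tested.

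Genes with the most similar profile over the 12 libraries were sought for Gata2, Kit and Spi1 by the Pearson correlation of log2(TPM + 1). The correlation describes libraries that fall into 4 treatment groups and share their scaling. Closest to Kit were Gna15, a G protein alpha subunit of blood cells (r = 0.998), Lgals1, galectin 1 (r = 0.997), and Crtc3, a coactivator of CREB (r = 0.997), and 510 genes exceeded r = 0.95. Gna15 averaged 487 ± 10.0 TPM with DTPA, 239 ± 4.92 TPM with DFO, 253 ± 3.30 TPM with SA and 200 ± 6.95 TPM in control. Closest to Spi1 were Gip, Igsf3 and Arhgdib (r = 0.993, 0.992 and 0.992), and 470 genes exceeded 0.95. Arhgdib averaged 3940 ± 61.5 TPM with DTPA against 1242 ± 7.30 TPM in control. Gata2 had fewer close neighbours, with 29 genes above 0.95, and the nearest were Otub2, a deubiquitinase gene, Flt3l, the gene of the FLT3 ligand, and Gucd1 (r = 0.978 each). Otub2 averaged 86.9 ± 1.59 TPM with DTPA, 50.2 ± 0.245 TPM with DFO, 71.7 ± 1.79 TPM with SA and 50.0 ± 2.32 TPM in control.

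The 8 genes were also compared with each other. Over the 12 libraries the correlation was between 0.94 and 0.98 among Spi1, Cd44, Fli1 and Hhex, and between 0.57 and 0.87 for Gata2 with the other genes that rose. Runx1 was correlated negatively with all 7, between -0.61 with Gata2 and -0.97 with Fli1.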

How the data were processed

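Polyadenylated RNA libraries of 12 cultures were made with a stranded kit, per the labels' protocols. The submitters' processing notes list mm10 as the build and, as tools, edgeR, featureCounts, FastQC, HISAT2 2.1.0 and Trimmomatic 0.33. No source used here gives their settings, the annotation or the strand used in counting. For every library the authors deposited its own TPM table of 55487 rows, of which 234 carried 1 of 114 repeated symbols, and the copy with the highest mean was kept. None of the 10 genes shared a symbol.

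Exon lengths and positions were taken from GENCODE M21 (GRCm38), which gave a length for 95.8% of rows. Dividing TPM times exon length by a step found for each library gave whole reads, within 0.1 read, for 98.8% to 99.0% of values no higher than 200 reads. Counting error is all that such read numbers cover. Values were fitted as log2(TPM + 1) with limma 3.58.1 (R 4.3.3), using every one of the 12 libraries, a mean for each group, a mean-variance trend and Benjamini-Hochberg adjustment over 11917 genes. The fit was tested on simulated data in which few genes changed, in both directions. That test does not show how the fit behaves where most genes are called, as with DTPA. Tables and plots used Python 3.11.15, numpy 2.4.6, pandas 2.3.3 and matplotlib 3.10.9. The labels call libraries biological replicates, and p-values measure only the spread between them.

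Each of the 10 genes was named in every comparison. From 4 further lists, up to 4 called genes per treatment with the largest fold change and either group's mean at 1 TPM or more were named, and 3 genes by likeness to Gata2, Kit and Spi1. Some genes that this rule selects are not reported here. Predicted gene models were not named, and genes named for a zero value or as examples of a marker list were chosen after their values were seen. The genes and lists were chosen with earlier results of these data known. Each fit was repeated with a pseudocount of 0.1 or 5, without the filter, with median-of-ratios scaling, a fit of the 6 libraries compared alone, the replicate number as a block, limma voom on the recovered reads, and each library left out in turn.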

Additional observations from a re-analysis of the deposited data

How the results depend on the processing

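The call and direction of all 8 tested genes held for DTPA against control and for DTPA against SA under all 19 alternatives. For DFO against control 5 of 8 genes held throughout, for SA against control 4 of 8, for DTPA against DFO 7 of 8 and for SA against DFO 5 of 8. Direction turned only where no call was made. For DFO against control it turned for Gata2 under median-of-ratios scaling (-0.016), for Spi1 under that scaling (-0.047) and voom (-0.018), and for Fli1 under that scaling (-0.016). With 1 library left out in turn the log2 fold change ran between -0.078 and 0.065 for Spi1 with DFO, between -0.022 and 0.088 for Fli1 with DFO, between -0.086 and 0.031 for Meis1 with SA, and between -0.051 and 0.066 for Cd44 between SA and DFO.

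Voom on the recovered reads called 4 of the 8 genes between SA and DFO, against 2 by limma on TPM. From only the 6 libraries compared, 802 of all genes were called with DFO against 1272, and 7 of the listed other genes against 13. With 1 library left out in turn, the called genes of the 8 numbered 8 with DTPA, 1 with DFO and between 3 and 4 with SA against control, between 7 and 8 for DTPA against DFO, 8 for DTPA against SA, and between 2 and 3 for SA against DFO. Over all genes the same runs gave between 7415 and 7809 calls with DTPA, 840 and 1244 with DFO and 2039 and 2611 with SA, and over the listed other genes between 54 and 57, 9 and 14, and 16 and 23. Without DFO replicate 1, 2 or 3 the count over all genes with DFO was 844, 847 or 840. The cause was not tested in these cases.

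Median-of-ratios scaling raised the median of all genes by 0.12 with DTPA and lowered it by 0.05 with DFO and SA. It split the calls over all genes as 3842 higher and 3859 lower with DTPA (2796 and 5014 as deposited), 423 and 646 with DFO (1000 and 272) and 1124 and 1624 with SA (1838 and 804). Libraries with the same replicate number did not deviate together (r between -0.04 and 0.05 over 18 pairs). With the replicate block 8, 1 and 3 of the 8 genes were called with DTPA, DFO and SA, and Hhex with SA (adjusted p = 0.0681) and Meis1 for DTPA against DFO (adjusted p = 0.0624) were no longer called. At 75 to 173 reads Meis1 was the least precisely measured of the 8 genes.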
